A study of Rattus norvegicus with 6 samples.

Results

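The insulin receptor, insulin receptor substrate (IRS) and Akt pathway was followed through 9 genes in the rat ovary: Insr, Irs1, Irs2, Pik3r1, Akt1, Akt2, Foxo1, Foxo3 and Slc2a4. Its members were all probe sets that the platform annotation assigns to 1 of these genes and to no other gene, and there were 20 of them among 31042 tested. The 9 genes stand among 14217 genes with a name on the array. Ovarian RNA from pregnant rats was measured on 6 Affymetrix arrays, each carrying 1 RNA pool. The overfed group (3 pools) had received a liquid diet of 220 kcal by total enteral nutrition, which is feeding through a tube, and the lean group (3 pools) had received 155 kcal, in both cases per kg of metabolic body weight. Females of both groups were fed in this way for 28 days and mated with lean males, and their ovaries were frozen at 4.5 days post coitum. Strain, age and the number of animals per pool are not stated in the labels used here. All p-values set the difference between groups against the spread between these pools, and the spread between animals cannot be seen in pooled RNA.

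Insulin binds a receptor tyrosine kinase, encoded by Insr, which phosphorylates the docking proteins Irs1 and Irs2. These recruit phosphoinositide 3-kinase through its regulatory subunit, encoded by Pik3r1, and the lipid it makes brings the kinases Akt1 and Akt2 to the membrane. Active Akt keeps the transcription factors Foxo1 and Foxo3 out of the nucleus and, in fat and muscle, moves the glucose transporter GLUT4, the product of Slc2a4, to the cell surface. In the ovary insulin acts beside gonadotropins on steroid-producing cells, Foxo1 is a factor of granulosa cells in rodents, and in mice Foxo3 restrains the activation of resting follicles. Most steps of this pathway are changes of phosphorylation and location, which RNA arrays do not measure.

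Slc2a4 had the largest difference of the 9 genes. It was lower in the overfed pools by 0.73 on the log2 scale in the probe set built on a RefSeq mRNA, 1367989_at, and by 0.31 in the other, 1388958_a_at. Irs1 differed by -0.36 and Irs2 by -0.24. The 3 Akt1 probe sets differed by -0.11 to -0.12, whereas the 4 Akt2 probe sets disagreed, from -0.40 to 0.06. Insr, Pik3r1, Foxo1 and Foxo3 had differences between -0.08 and 0.19. None of the 20 member probe sets passed the test across all probe sets: limma's Benjamini-Hochberg adjusted p ran from 0.669 to 0.994, and 0 of 31042 probe sets (0%) had an adjusted p under 0.05.

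RefSeq promoter sequences (assembly GRCr8, from 250 bases before to 50 bases after the start that the table uses) were held for 6 of the 9 genes, and those of the receptor and of its substrate Irs1 are shown, since these genes open the pathway and since Foxo factors, its end point, bind a core of TGTTTAC. The core TGTTTAC and the GC box GGGCGG, which Sp factors bind, were searched on both strands and are in capitals. They do not overlap one another in these sequences. The Insr promoter lies at chr12:6128754-6129053 on the minus strand and the Irs1 promoter at chr9:91053910-91054209 on the minus strand, and both are printed 5' to 3' in the direction of the gene.
Insr: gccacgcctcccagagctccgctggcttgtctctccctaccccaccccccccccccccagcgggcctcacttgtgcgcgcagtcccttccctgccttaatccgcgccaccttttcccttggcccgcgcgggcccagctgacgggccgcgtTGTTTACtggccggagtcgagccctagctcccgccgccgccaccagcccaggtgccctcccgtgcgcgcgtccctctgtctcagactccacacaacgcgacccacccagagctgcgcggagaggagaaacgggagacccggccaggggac
Irs1: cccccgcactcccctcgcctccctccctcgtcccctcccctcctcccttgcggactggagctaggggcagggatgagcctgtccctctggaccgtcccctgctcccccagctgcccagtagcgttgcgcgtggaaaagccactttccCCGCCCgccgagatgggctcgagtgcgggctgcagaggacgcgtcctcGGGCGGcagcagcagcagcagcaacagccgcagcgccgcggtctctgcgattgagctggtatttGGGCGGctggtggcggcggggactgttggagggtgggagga
The Insr promoter holds 1 TGTTTAC, which begins 100 bases before the start, and no GGGCGG. The Irs1 promoter holds 3 GGGCGG and no TGTTTAC. Of 33469 promoters of this length, 3.78% hold TGTTTAC and 33.1% hold GGGCGG. Among the other 4 members in the table, Pik3r1 has 7 GGGCGG, and Akt1, Akt2 and Foxo1 have neither motif in this window. These matches describe letters, not binding.

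The deposited values are log values, read here as log2, relative to the median of the 6 arrays for each probe set. Levels are therefore not known, values of different genes cannot be ranked by abundance, and neither ovarian markers nor markers of other cells could be checked for presence. The median of each array was within 0.01 of 0. Overfed pool 1 had the widest values of the 6 pools (SD of 0.29 over all probe sets, beside 0.14 to 0.24 in the others). Hybridization controls, spiked transcripts that do not come from the ovary, averaged -0.04, -0.05 and -0.25 in overfed pools 1 to 3 and 0.04, 0.06 and 0.50 in lean pools 1 to 3 (9 probe sets), so lean pool 3 was the highest. Beta-actin and GAPDH are read by the array at both ends of their mRNA. Each end was centred on its own median, so the 3' minus 5' contrast can be compared between pools only. It does not show which end was higher within a pool. For beta-actin it was 0.36 in lean pool 3 and between -0.06 and 0.06 in the other 5 pools. For GAPDH it was 0.17 in lean pool 3 and between -0.06 and 0.08 in the others. With 3 pools a group, the number of arrays limits the precision.

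**Figure D1:**
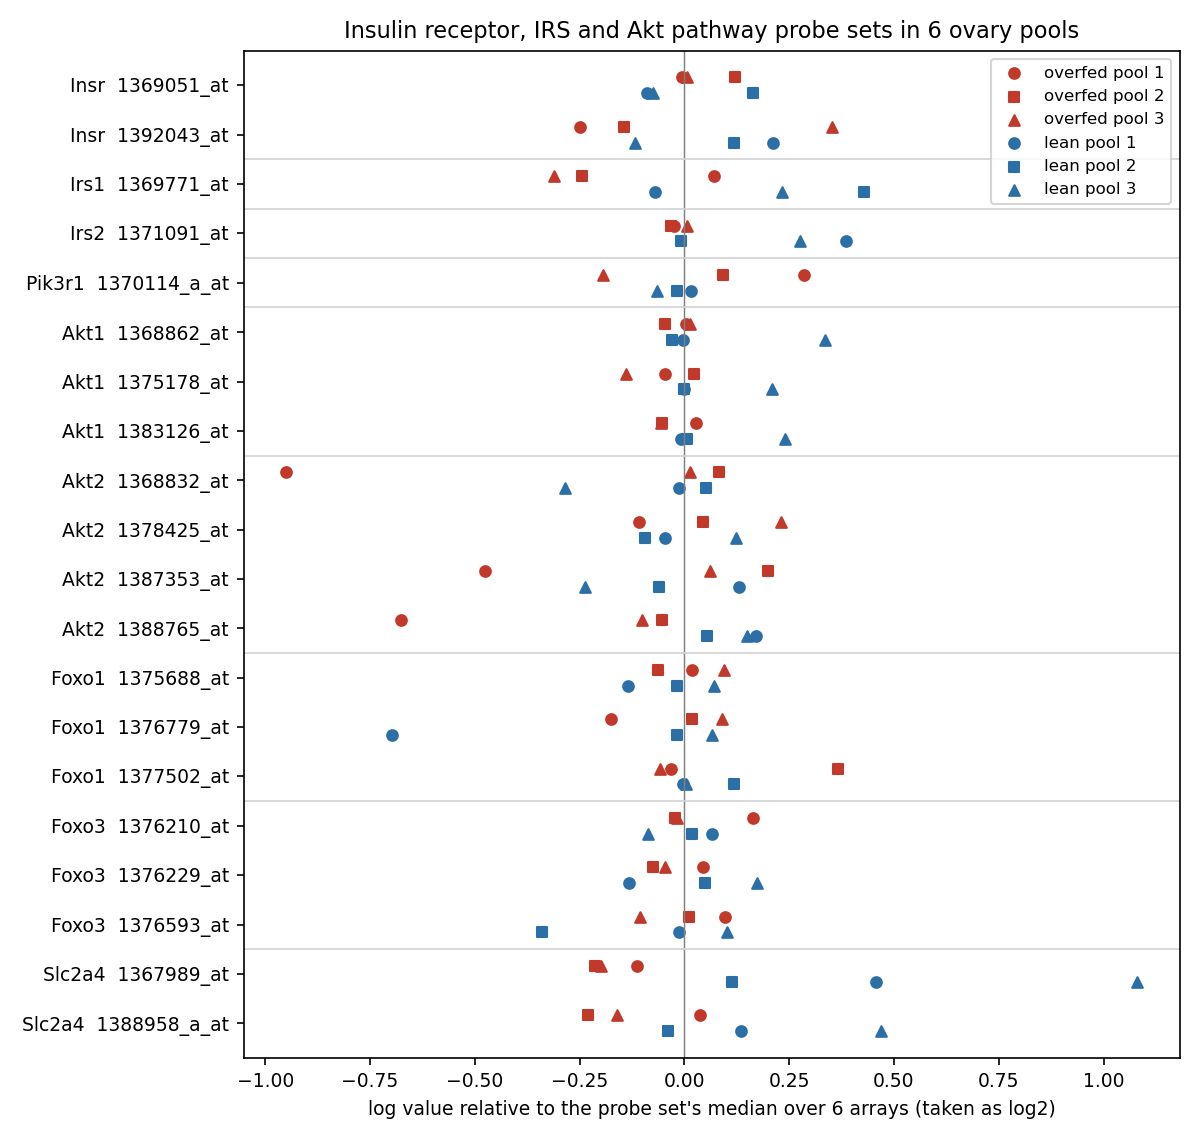
Values of the 20 probe sets of the insulin receptor, IRS and Akt pathway in each ovary pool (x axis, log2 relative to the probe set's median over 6 arrays), with the overfed pools in red above the lean pools in blue and 1 symbol per pool number. The 3 lean values of Slc2a4 1367989_at lie to the right of its 3 overfed values, lean pool 3 is the highest in all 3 Akt1 probe sets, and overfed pool 1 is the lowest in all 4 Akt2 probe sets, although in 1378425_at it is close to lean pool 2 (-0.11 and -0.09).

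At the head of the pathway, the receptor gene showed no shared direction. The RefSeq-based Insr probe set 1369051_at had values of -0.01, 0.12 and 0.01 in overfed pools 1 to 3 and -0.09, 0.16 and -0.07 in lean pools 1 to 3. The second, 1392043_at, had -0.25, -0.14 and 0.35 in the overfed pools and 0.21, 0.12 and -0.12 in the lean pools. The groups overlapped in both, and overfed pool 3 was far above the other overfed pools in the second only. The differences were 0.04 (SE 0.099, adjusted p = 0.966) and -0.08 (SE 0.17, adjusted p = 0.958) in limma. The 95% interval of the first reached from 0.874-fold to 1.21-fold, so that a larger change of this transcript region is outside it, while that of the second was wider, from 0.71-fold to 1.25-fold.

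Both receptor substrates were lower on average in overfed ovaries, each measured by 1 probe set. Irs1 had 0.07, -0.24 and -0.31 in overfed pools 1 to 3 and -0.07, 0.43 and 0.23 in lean pools 1 to 3. Overfed pool 1 lay above lean pool 1, so the groups overlapped. The means were -0.16 ± 0.20 in overfed and 0.20 ± 0.25 in lean ovaries (SD, n = 3 each), a difference of -0.36 (SE 0.16, limma unadjusted p = 0.0568, adjusted p = 0.759) or 1.28-fold lower. Irs2 had -0.03, -0.03 and 0.01 in overfed pools 1 to 3 and 0.39, -0.01 and 0.28 in lean pools 1 to 3. The overfed pools were close together, and lean pools 1 and 3 stood above them while lean pool 2 lay among them. The difference of Irs2 was -0.24 (SE 0.11, limma unadjusted p = 0.0774, adjusted p = 0.800). Different lean pools were high in the 2 genes, pools 2 and 3 for Irs1 and pools 1 and 3 for Irs2. Permuting the pools between groups gave an exact two-sided p of 0.2 for each, where 3 against 3 cannot give less than 0.1. With any 1 pool left out Irs1 ran from -0.49 to -0.24 and was lowest in size without lean pool 2 (unadjusted p = 0.177). It differed by -0.47 without overfed pool 1 (unadjusted p = 0.0206) and by -0.49 without lean pool 1 (unadjusted p = 0.0163), and without lean pool 2 Irs2 differed by -0.35 (unadjusted p = 0.00934). Without lean pool 1 Irs2 differed by -0.15 (unadjusted p = 0.238).

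Pik3r1, the p85-alpha regulatory subunit that docks on phosphorylated IRS proteins, had 1 probe set, which is shared between transcripts of the gene. Its values were 0.29, 0.09 and -0.19 in overfed pools 1 to 3 and 0.02, -0.02 and -0.07 in lean pools 1 to 3. The overfed pools enclosed all 3 lean pools. The difference was 0.08 (SE 0.13, limma adjusted p = 0.939), and it turned to -0.03 without overfed pool 1.

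The kinase genes took their extreme values from different pools. Akt1, the widely expressed isoform, had 3 probe sets, all lower on average in the overfed pools and all highest in lean pool 3. The RefSeq-based 1368862_at had 0.00, -0.05 and 0.01 in overfed pools 1 to 3 and -0.00, -0.03 and 0.33 in lean pools 1 to 3. Lean pool 3 was also the highest in 1375178_at, at 0.21, and in 1383126_at, at 0.24. The other 5 pools lay within a range of 0.06, 0.16 and 0.083 in these probe sets. The differences of -0.11, -0.12 and -0.11 had limma adjusted p-values of 0.90, 0.86 and 0.88. Without lean pool 3 the differences were 0.01, -0.05 and -0.03. Lean pool 3 is the pool with the high hybridization controls (0.50) and the high 3' minus 5' contrast of beta-actin (0.36). The part of these in the Akt1 values was not tested.

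Akt2, the isoform most tied to insulin's control of glucose uptake in mice, had 4 probe sets. In overfed pool 1 they stood at -0.95 (1368832_at), -0.68 (1388765_at), -0.48 (1387353_at) and -0.11 (1378425_at). In overfed pools 2 and 3 the RefSeq-based 1368832_at had 0.08 and 0.01, and in lean pools 1 to 3 it had -0.01, 0.05 and -0.28. The low value was thus that of 1 overfed pool, and the other 2 overfed pools lay at or near the top of the lean range. The probe set 1388765_at had -0.05 and -0.10 in overfed pools 2 and 3 and 0.17, 0.05 and 0.15 in lean pools 1 to 3, so its groups did not overlap. Its difference was -0.40 (SE 0.17, limma unadjusted p = 0.0486, adjusted p = 0.748), or 1.32-fold lower in overfed ovaries, and it was -0.20 without overfed pool 1 (unadjusted p = 0.0707). Without lean pool 1, 2 or 3 it was -0.38, -0.44 or -0.39, each with an unadjusted p over 0.05. It was -0.51 without overfed pool 2 (limma unadjusted p = 0.0280) and -0.49 without overfed pool 3 (limma unadjusted p = 0.0416). The differences of the other Akt2 probe sets were -0.20 (SE 0.27), -0.02 (SE 0.19) and 0.06 (SE 0.11). Without overfed pool 1 these were 0.13, 0.19 and 0.14, so that 3 of the 4 Akt2 probe sets then lay above 0. The mean of all 4 differed by -0.14 (SE 0.17, limma unadjusted p = 0.444).

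The forkhead factors that Akt inactivates were close to 0. Foxo1 had 3 probe sets with differences of 0.04 (SE 0.091), 0.19 (SE 0.20) and 0.05 (SE 0.13), in 1375688_at, 1376779_at and 1377502_at. The middle one rests on lean pool 1, which stood at -0.70 against -0.17, 0.02 and 0.09 in overfed pools 1 to 3 and -0.02 and 0.07 in lean pools 2 and 3. It turned to -0.05 without that pool. In 1377502_at overfed pool 2 was the highest at 0.37, against -0.03 and -0.06 in overfed pools 1 and 3 and -0.00, 0.12 and 0.00 in lean pools 1 to 3. Foxo3 had 3 probe sets with differences of 0.04 (SE 0.092), -0.06 (SE 0.10) and 0.08 (SE 0.13). Its first, 1376210_at, had 0.16, -0.02 and -0.02 in overfed pools 1 to 3 and 0.07, 0.02 and -0.09 in lean pools 1 to 3, and the groups overlapped in all 6 Foxo probe sets. The 95% interval of the Foxo3 probe set 1376210_at was 0.885-fold to 1.20-fold, and that of the first Foxo1 probe set 0.888-fold to 1.20-fold. The limma adjusted p-values of the 6 ran from 0.901 to 0.964. These factors are controlled by phosphorylation and location, so RNA values say little about their activity.

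Slc2a4 encodes GLUT4, the transporter that insulin moves to the surface of fat and muscle cells. In 1367989_at it had -0.11, -0.21 and -0.20 in overfed pools 1 to 3 and 0.46, 0.11 and 1.08 in lean pools 1 to 3. The overfed pools lay close together, every lean pool lay above them, and the lean pools spread widely with pool 3 on top. The means were -0.18 ± 0.054 in overfed and 0.55 ± 0.49 in lean ovaries (SD, n = 3 each). The difference of -0.73 (SE 0.23, 95% interval -1.26 to -0.19), or 1.65-fold lower in overfed ovaries, had a limma unadjusted p of 0.0146 and an adjusted p of 0.669. The exact permutation p over the pools, two-sided, was 0.1, the smallest that 3 against 3 can give. In 1388958_a_at, a probe set shared between transcripts, it had 0.04, -0.23 and -0.16 in overfed pools 1 to 3 and 0.13, -0.04 and 0.47 in lean pools 1 to 3. Here overfed pool 1 lay above lean pool 2 and the groups overlapped, although the lean pools had the same order as in the first probe set. Its difference was -0.31 (SE 0.15, limma unadjusted p = 0.0743, adjusted p = 0.793). Without lean pool 3 the differences were -0.46 (unadjusted p = 0.0105) and -0.17 (unadjusted p = 0.212).

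Markers of tissues that can adhere to an ovary were read beside Slc2a4, against a background of 14217 genes of which 47.8% were lower and 7.15% had an unadjusted p under 0.05 (4.47% lower and 2.67% higher). The lists were written with earlier results of these data known, so a share above the background is a description and no independent evidence. Of 14 adipocyte markers measured, 12 were lower and 2 higher in overfed ovaries, with a median of -0.18 that was -0.097 without lean pool 3 and -0.11 without overfed pool 2. Only the lipase Pnpla2, at -0.29 (SE 0.11), had an unadjusted p under 0.05, and 1 of 14 is at the background. Thrsp, a lipogenic protein, was at -0.86 (SE 0.39). Cidec was at -0.54 (SE 0.29), Fabp4 at -0.45 (SE 0.31) and Aqp7 at -0.41 (SE 0.21), each with an unadjusted p over 0.05. Other markers of the list were nearer 0 or uncertain: Adipoq at -0.26 (SE 0.34), Plin1 at -0.14 (SE 0.17), Lep at -0.14 (SE 0.12) and Cfd at 0.06 (SE 0.21). The mean of the adipocyte markers was 0.13, -0.24 and -0.14 in overfed pools 1 to 3 and 0.13, -0.11 and 0.43 in lean pools 1 to 3. Of 12 oviduct and ciliated epithelium markers, 11 were lower and 7 of 12 (58.3%) had an unadjusted p under 0.05, above the background. Among these were Foxj1, the regulator of motile cilia, at -1.06 (SE 0.21) and Tekt1, a protein of cilia, at -1.16 (SE 0.28). The list median was -0.67, and -0.92 to -0.47 with any 1 pool left out. Its mean was -0.36, -0.20 and -0.71 in overfed pools 1 to 3 and 0.45, -0.10 and 0.67 in lean pools 1 to 3. Over the lean pools both lists had the order of Slc2a4, pool 3 above pool 1 above pool 2. The 15 muscle markers had a median of -0.01, 7 higher and 8 lower, with 0 at an unadjusted p under 0.05 (Myocd at 0.34, SE 0.21, and Lmod1 at -0.32, SE 0.32, had the smallest). Their mean had the same order over the lean pools but was highest in overfed pool 1, at 0.96, -0.25 and -0.53 in overfed pools 1 to 3 and 0.25, -0.78 and 0.56 in lean pools 1 to 3. The part of fat, oviduct or lean pool 3 in the Slc2a4 difference was not tested, and in these bulk pools fewer cells of a type and less RNA per cell cannot be told apart.

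**Figure D2:**
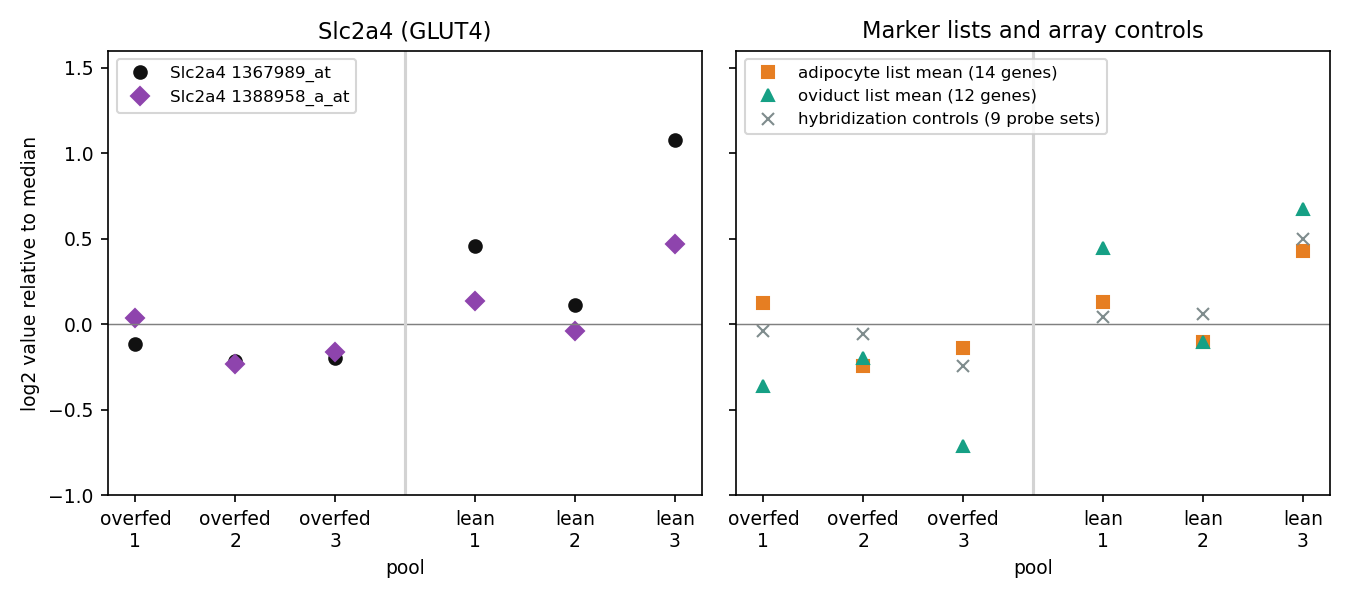
Both Slc2a4 probe sets (left panel) and the means of 14 adipocyte markers, 12 oviduct and ciliated markers and 9 hybridization controls (right panel) in each pool (x axis, overfed pools left of lean pools; y axis, log2 relative to each probe set's median). Lean pool 3 is the highest pool in all 5 series, at 1.08 for Slc2a4 1367989_at, 0.43 for the adipocyte mean and 0.50 for the controls.

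Markers of cells of the ovary itself were read in the same way, beside the same 7.15% of genes. These lists too were written with earlier results of these data known, so their shares are descriptions only. Of 11 granulosa cell markers, the cells in which Foxo1 acts in rodents, 9 lay above 0 and 2 below (median 0.16). The activin subunit Inhba was at 0.64 (SE 0.20) and had the only unadjusted p under 0.05 in that list, 1 of 11 or 9.09%, near the background, and the protease inhibitor Serpine2 was at 0.25 (SE 0.14). Of 12 luteal, theca and interstitial markers 5 were higher and 7 lower, and 3 (25%) had an unadjusted p under 0.05 in opposite directions. These were Cyp17a1, the enzyme of androgen synthesis, at 0.69 (SE 0.27), the retinal dehydrogenase Aldh1a1 at 0.67 (SE 0.23) and oxytocin, Oxt, at -0.32 (SE 0.11). The median of that list was -0.04, and it ran from -0.19 without lean pool 3 to 0.11 without lean pool 2. Of 11 macrophage markers 10 were higher and 1 lower, with a median of 0.21, and 4 (36.4%) had an unadjusted p under 0.05, all higher, where 2.67% of genes were. The mannose receptor Mrc1 was at 0.40 (SE 0.096) and the lectin Clec10a at 0.33 (SE 0.11). Of 6 oocyte markers 3 were higher and 3 lower (median 0.03), with Ooep at 0.33 (SE 0.17) and Zp3 at 0.31 (SE 0.20). Of 9 endothelial markers 3 were higher and 6 lower (median -0.0035), with Cldn5 at 0.21 (SE 0.097) and Vwf at 0.23 (SE 0.13). In the oocyte and endothelial lists 0 markers had an unadjusted p under 0.05. The part of a changed cell makeup in the values of the pathway was not tested.

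Taking the 20 probe sets as a set, 12 were lower and 8 higher in overfed ovaries, against 45.4% of all probe sets that were lower. Probe sets of the same gene are not independent. By 1 representative probe set per gene, 5 of the 9 members were lower and 4 higher, against 47.8% of all genes that were lower. The median difference was -0.07 over the members and 0.01 over all probe sets, and the median absolute difference was 0.096 over the members and 0.091 over all. At an unadjusted p under 0.05 there were 2 of 20, Akt2 1388765_at and Slc2a4 1367989_at, both lower, where 6.67% of all probe sets passed, 3.36% lower and 3.31% higher. The same 2 of 20 had groups that did not overlap, beside 12.7% of all probe sets in either direction and 5.33% with the overfed pools below. These shares lie near the background at so small a number of members. Lean pool 3 was the highest pool in 7 of 20 member probe sets (35%) and in 20% of all probe sets, and overfed pool 1 was the lowest in 5 of 20 (25%) and in 19.7% of all. The former were probe sets of Akt1, Slc2a4 and Foxo3 only, and the latter of Akt2 and Insr only. Without lean pool 3 the median of the members was -0.01. The spread within groups was somewhat wider than usual on these arrays, with a median SD of 0.17 over the members and 0.14 over all probe sets. For 14 of the 20 the 95% interval of the difference lay within 1.5-fold in either direction, and for 19 within 2-fold, the exception being Slc2a4 1367989_at.

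**Figure D3:**
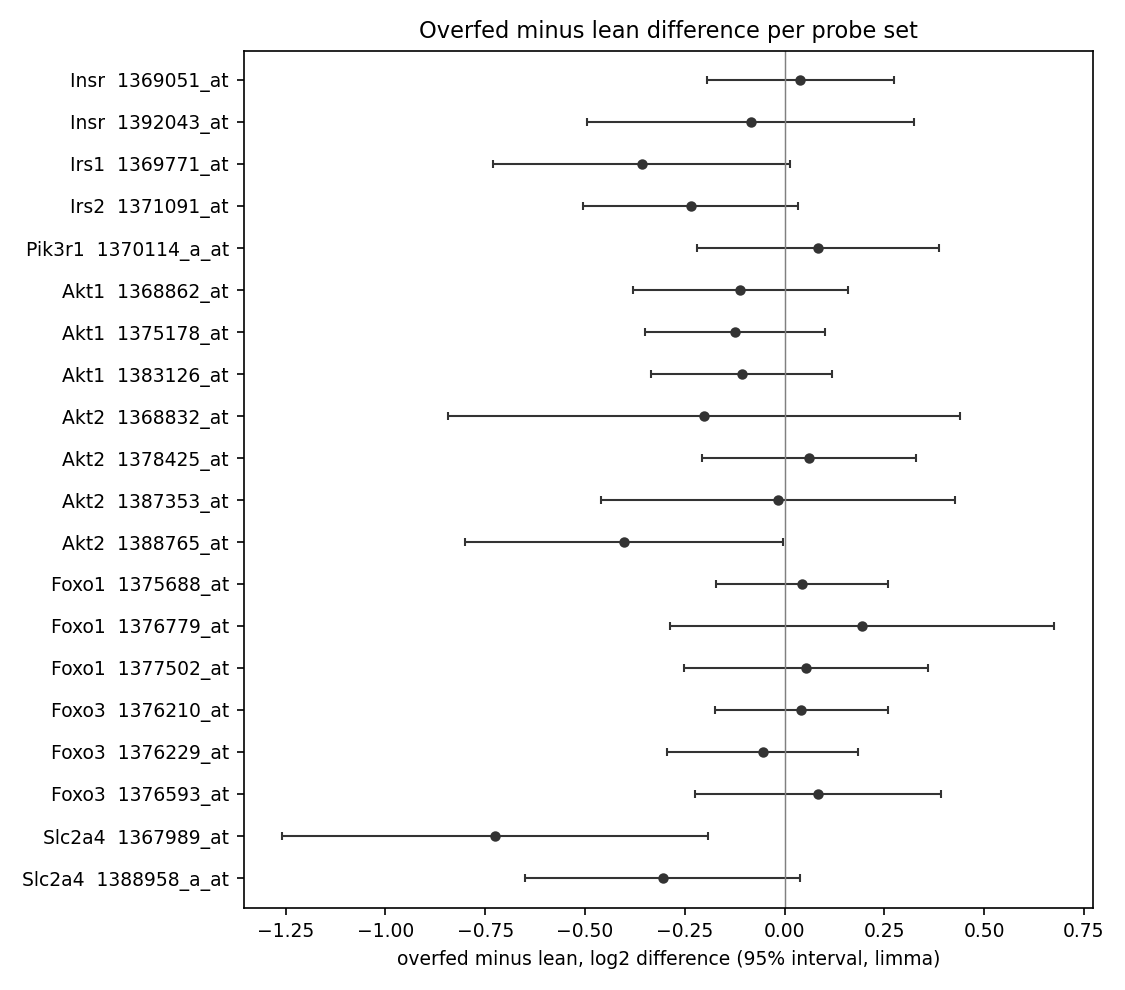
Overfed minus lean difference of each of the 20 member probe sets (x axis, log2; points, limma estimate; bars, 95% interval from limma's moderated SE). Only the intervals of Slc2a4 1367989_at (-1.26 to -0.19) and Akt2 1388765_at (-0.80 to -0.0033) lie wholly below 0, before any adjustment over the 31042 probe sets.

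Other genes of the pathway were read by 1 representative probe set per gene in 5 lists, which hold 114 measured genes. Of these, 57 were higher and 57 lower, their median was 0.00063, and 3 (2.63%) had an unadjusted p under 0.05, beside 7.15% of 14217 genes, 2.67% higher and 4.47% lower. Over all genes the median was 0.0070 and 47.8% were lower. None had an adjusted p under 0.05. The 3 were Ptpn11, Prkcz and Vamp2, and without lean pool 3 the count was 2, Ptpn11 and Cdkn1b, the cell cycle inhibitor p27, which was at -0.07 (SE 0.47) with all pools.

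Among 23 adaptors and inhibitors at the receptor, 12 were higher and 11 lower, with a median of 0.02. Ptpn11, the phosphatase SHP2 that binds IRS proteins, had 0.09, 0.08 and 0.11 in overfed pools 1 to 3 and -0.08, -0.13 and -0.46 in lean pools 1 to 3. Its overfed pools lay close together and above every lean pool, with lean pool 3 the lowest. The difference was 0.32 (SE 0.11, 1.25-fold, limma unadjusted p = 0.0260, adjusted p = 0.705), 0.20 without lean pool 3, and 0.11 (SE 0.079) in its other probe set. Prkcz, an atypical protein kinase C that acts downstream of phosphoinositide 3-kinase, had -0.15, 0.02 and -0.60 in overfed pools 1 to 3 and 0.21, -0.02 and 0.55 in lean pools 1 to 3. Its groups overlapped through pool 2 of each, and the difference was -0.49 (SE 0.20, limma unadjusted p = 0.0438, adjusted p = 0.739). Ptpn2, the tyrosine phosphatase that dephosphorylates the receptor, differed by 0.25 (SE 0.11) in its representative and by 0.11 in its other probe set. The inhibitors Socs1, Socs3 and Ptpn1 were at 0.09, 0.14 and -0.09, each with an unadjusted p over 0.05.

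In the list of phosphoinositide 3-kinase subunits, lipid phosphatases and Akt regulators, 11 of 19 were higher and 8 lower, with a median of 0.02 and 0 at an unadjusted p under 0.05. The smallest p-values were those of Ppp2r1a, a scaffold subunit of protein phosphatase 2A, at -0.32 (SE 0.16, with 0.07 in its other probe set), Trib2, a pseudokinase reported to bind Akt, at 0.39 (SE 0.21, with 0.43 and an unadjusted p of 0.0458 in its other probe set) and Them4, reported to inhibit Akt, at 0.16 (SE 0.090). In Ppp2r1a lean pool 3 stood at 0.62, against -0.06, -0.04 and -0.07 in overfed pools 1 to 3 and 0.04 and 0.11 in lean pools 1 and 2. In Trib2 overfed pool 1 stood at -0.18 beside 0.38 and 0.59 in overfed pools 2 and 3. Without overfed pool 1 its difference was 0.61 (unadjusted p = 0.00617).

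Of 24 Akt substrates and mTORC1 genes, 11 were higher and 13 lower, with a median of -0.02 and 0 at an unadjusted p under 0.05. Gsk3a, a glycogen synthase kinase that Akt inhibits, was at -0.26 (SE 0.12), Mdm2, the p53 ubiquitin ligase, at -0.19 (SE 0.096; its other probe sets were at 0.17 and -0.08) and Foxo4, another forkhead factor of the family, at -0.21 (SE 0.12). Of 28 genes reported as FOXO targets, 9 were higher and 19 lower, with a median of -0.04 and 0 at an unadjusted p under 0.05. The lowest p-values there were those of the pyruvate dehydrogenase kinase Pdk4 at 0.16 (SE 0.11), catalase Cat at -0.12 (SE 0.086) and the autophagy kinase Ulk1 at -0.21 (SE 0.15). Insulin-repressed genes of liver in this list, Pck1 and Igfbp1, were at 0.28 (SE 0.25) and -0.18 (SE 0.25).

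Of 20 glucose transporters and genes of GLUT4 vesicle traffic, 14 were higher and 6 lower, with a median of 0.04. The transporters Slc2a1, Slc2a3 and Slc2a8 were at -0.04 (SE 0.14), -0.04 (SE 0.11) and 0.04 (SE 0.080), beside -0.73 for Slc2a4. Vamp2, a SNARE protein of GLUT4 vesicles and of many other vesicles, had -0.15, -0.22 and -0.01 in overfed pools 1 to 3 and 0.01, 0.10 and 0.40 in lean pools 1 to 3. Its groups did not overlap but met near 0, and lean pool 3 was the highest. The difference was -0.29 (SE 0.12, limma unadjusted p = 0.0487, adjusted p = 0.748), while its other probe set was at -0.03 (SE 0.084). Hexokinase Hk1 was at -0.23 (SE 0.13, with 0.05 in its other probe set) and the fructose transporter Slc2a5 at 0.26 (SE 0.19), where overfed pool 3 stood at 0.66. Lnpep, the aminopeptidase that travels with GLUT4, was at 0.04 (SE 0.13).

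**Figure D4:**
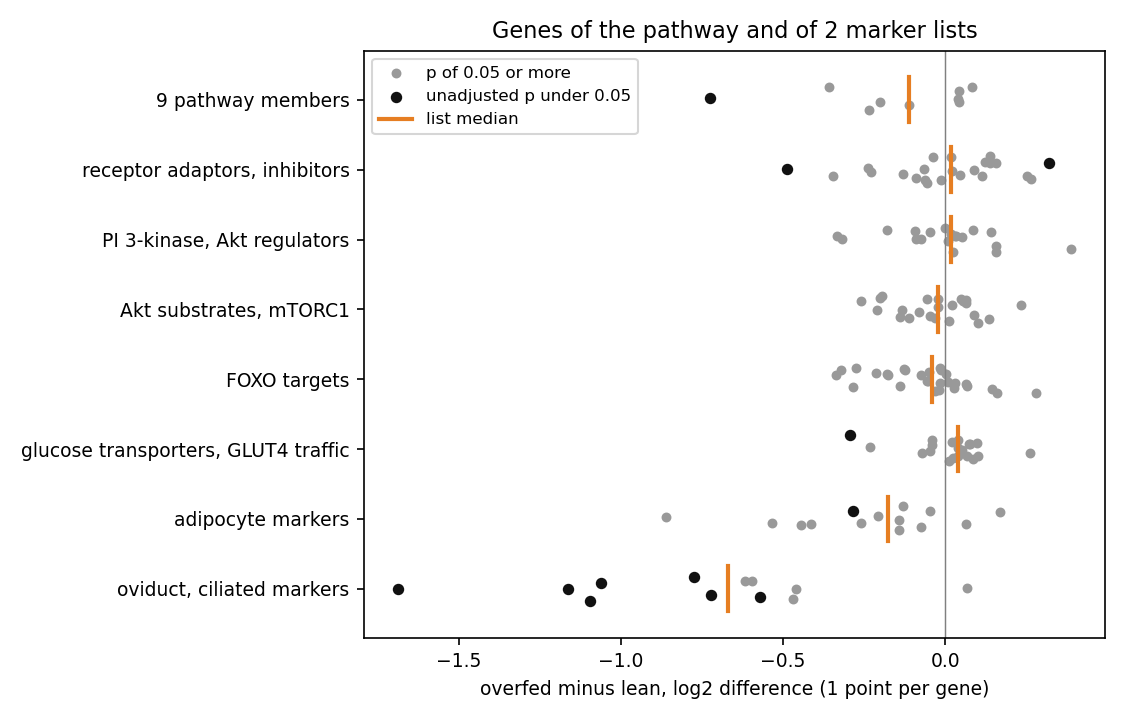
Overfed minus lean difference (x axis, log2) of each measured gene by its representative probe set, for the 9 members, the 5 pathway lists and 2 marker lists, with black points for an unadjusted limma p under 0.05, grey points for the others and an orange line at the list median. The 5 pathway lists centre between -0.04 and 0.04, whereas the adipocyte and oviduct lists centre at -0.18 and -0.67.

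The genes whose pool values were most like those of Slc2a4 1367989_at were Zdhhc1 (Pearson's r = 0.9997), Mettl7a (r = 0.995) and Nrgn (r = 0.991), with Spearman's rho of 0.94, 0.94 and 1. For Insr 1369051_at they were Abhd8 (r = 0.984), Arl6ip4 (r = 0.982) and Slc33a1 (r = 0.973), with rho of 0.94, 1 and 0.94. Each is the top of 14216 genes over the same 6 arrays, so these are descriptions with no test, and 291 genes had r above 0.9 with Slc2a4 and 82 with Insr. Without the 2 pools farthest from the median, lean pools 1 and 3 for Slc2a4 and pool 2 of each group for Insr, the values were 0.996, 0.970 and 0.888 for Slc2a4 and 0.895, 0.871 and 0.875 for Insr.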

How the data were processed

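RNA of 3 overfed and 3 lean ovary pools was hybridized to Affymetrix arrays after biotin labelling, per the labels' protocols. The submitters' processing notes name GCOS. How probe sets were summarised and normalized, and which logarithm was taken, is not given in the sources used here. Values as deposited are logs, taken as log2 and centred before deposit: the median over 6 arrays was 0 within 1e-06 in 31099 of 31099 probe sets. After 57 array controls were left out, 31042 were tested, of which 20826 had 1 gene name (14217 genes), 436 several and 9780 none. Symbols were updated through Entrez identifiers.

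The difference, overfed minus lean, was fitted in limma 3.58.1 (R 4.3.3) by lmFit and eBayes, two-sided, adjusted by Benjamini-Hochberg over all probe sets at 0.05. A gene's representative was the RefSeq-based probe set, then the unique type, then the lowest identifier. Named genes were all members, the 3 genes with the smallest p in each pathway list and the 2 in each marker list. Cdkn1b, Cyp17a1, Adipoq, Plin1, Lep, Cfd, Socs1, Socs3, Ptpn1, Pck1, Igfbp1, Slc2a1, Slc2a3, Slc2a8 and Lnpep were named after their values were seen. So were Cidec, Fabp4 and Aqp7. Members and lists were chosen with earlier results of these data known. Of 229 list genes, 204 were measured. Intervals use the moderated SE.

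On simulated data for this comparison (31042 probe sets), the adjusted test found 26 of 50 probe sets changed by 1.5-fold and 33 of 50 changed by 2-fold. It found 49 of 50 at 4-fold and at 8-fold, and 6 unchanged probe sets were called. The simulated noise was normal and independent between probe sets, so it held no shift shared across an array. The planted changes of 4-fold and 8-fold also eased the adjusted threshold for the smaller ones. In the data 0 of 31042 probe sets passed, so these shares do not give the power of the test here. Alternatives were quantile normalization, centring on array medians, weights per array, a robust prior, pool number as block, left-out pools, a filter on SD, gene means and natural logarithms.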

Additional observations from a re-analysis of the deposited data

How the results depend on the processing

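Over 14 settings other than the log base, 7 of the 20 member probe sets kept their direction wherever fitted: Irs1, Irs2, Akt1 1375178_at and 1383126_at, Akt2 1388765_at and both of Slc2a4. The robust prior, block and SD filter leave differences unchanged and so do not test direction, nor do left-out pools where groups do not overlap. With any 1 pool left out Slc2a4 1367989_at ran from -0.944 to -0.461 and 1388958_a_at from -0.419 to -0.165. Read as natural logarithms, the first is 2.07-fold lower in overfed ovaries rather than 1.65-fold, and the median of the members becomes -0.10. No member passed the adjusted threshold in any setting, and the lowest adjusted p was 0.256, for Slc2a4 1367989_at when only probe sets with an SD above the median SD were kept. That filter called 62 probe sets in all, with 944 at an unadjusted p under 0.05. Its SD spans both groups, so it also selects on the difference tested, and its calls and adjusted p-values are not a neutral check. Under the filter the limma unadjusted p of Slc2a4 1367989_at went from 0.0146 to 0.00475. The other settings called 0, with 1513 to 2267 at an unadjusted p under 0.05 when 1 pool was left out. The count of members at an unadjusted p under 0.05, 2 in the main fit, was 1 with array weights, 1 with the SD filter and 1 to 3 with any 1 pool left out: 1 without lean pool 3, and 3 without lean pool 2 (Irs2 and both of Slc2a4) or overfed pool 1 (Irs1 and both of Slc2a4). Their median ran from -0.091 without lean pool 1 to -0.015 without lean pool 3. The count of pathway genes, 3 in the main fit, was 1 with the SD filter and 2 to 6 with any 1 pool left out, the highest without lean pool 2, and it was 5 without overfed pool 1 or without lean pool 1. With any 1 pool left out, the medians of the 5 pathway lists stayed between -0.059 and 0.062, and 3 of them changed sign, those at the receptor, of Akt regulators and of Akt substrates. Among the marker lists, the adipocyte median ran from -0.26 to -0.097, the muscle median from -0.40 to 0.28, the oocyte median from -0.088 to 0.24 and the endothelial median from -0.059 to 0.036.

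Whether the pool numbers pair the pools is not stated in the labels used here. Deviations from the group means correlated by 0.097, 0.17 and -0.28 between same-numbered pools. Between pools of different numbers the correlations ran from -0.42 (overfed 1 and lean 2) to 0.40 (overfed 3 and lean 2). With 3 pools a group these values cannot decide whether pools shared a batch. With the pool number as a replicate block 1 member and 5 pathway genes had an unadjusted p under 0.05.

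The other 13 member probe sets turned their sign in at least 1 setting. With any 1 pool left out, Insr 1369051_at ran from -0.0048 to 0.12 and 1392043_at from -0.27 to 0.033, Pik3r1 from -0.029 to 0.21, Akt1 1368862_at from -0.18 to 0.0065, Akt2 1368832_at from -0.39 to 0.13, 1378425_at from -0.026 to 0.14 and 1387353_at from -0.15 to 0.19. Foxo1 1375688_at ran from -0.0099 to 0.093, 1376779_at from -0.046 to 0.34 and 1377502_at from -0.084 to 0.13, and Foxo3 1376210_at from -0.020 to 0.075, 1376229_at from -0.14 to 0.016 and 1376593_at from -0.044 to 0.18. Without lean pool 3 and overfed pool 1 together, Pik3r1 was at -0.051, Akt2 1368832_at at 0.029, Akt2 1387353_at at 0.095 and Foxo3 1376210_at at -0.063. Akt2 1387353_at was at 0.0046 with quantile normalization and 0.029 with array weights, Foxo3 1376210_at at -0.0046 with array weights, and the mean of both Insr probe sets at -0.023. The cause of these turns was not tested.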
